A study of Homo sapiens with 9 samples.

Results

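The genes described here are 41 named genes of the NF-kB response and of secreted signalling in RKO, a human colorectal cancer cell line, with and without targeting of DIP2C. They comprise the NF-kB subunits, their inhibitors, other NF-kB targets, cytokines, chemokines, colony-stimulating factors and IGF-binding proteins. They were taken by name from the 23619 gene symbols of the count files, and all 41 were found, with CXCL8 written as IL8. For each gene the log2 CPM, the counts of a gene scaled to a common sample total, of each clone minus the mean of the parental samples was taken, and a gene under 10 counts in every sample was called off.

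Bulk RNA sequencing had been done on 9 libraries of cells grown for 48 h, and the question was what the loss of DIP2C alters in these cells. The groups were parental RKO (2 samples, DIP2C intact), DIP2C-/- (clones E3 and C10) and DIP2C+/- (clones A6-C9, F6-A7, G1-A5, A9-A12 and H9-A4), with 1 library per clone. The files hold more DIP2C+/- clones than the study describes, and the labels were followed for all of them, H9-A4 included. The clones were each grown from a single cell after recombinant AAV targeting of DIP2C exon 9 and Geneticin selection, and both DIP2C-/- clones were made by a second targeting of 1 DIP2C+/- clone, so they are not independent of each other. The labels do not say whether that DIP2C+/- clone is among the samples. The DIP2C-/- clones may thus not be independent of the DIP2C+/- clones either. No targeted and selected clone with intact DIP2C was among the samples, so that clonal growth and genotype cannot be told apart. The labels do not say that the parental samples were separate cultures, and p-values then measure only the spread between these samples.

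NF-kB is a family of dimeric transcription factors built from the subunits NFKB1, NFKB2, REL, RELA and RELB. In resting cells the dimers are held in the cytoplasm by IkB proteins such as NFKBIA and NFKBIE, and signals from TNF, IL-1 or microbial receptors release them through the IkB kinases. In the nucleus they bind kappaB sites and switch on cytokine, chemokine, adhesion and survival genes, among them their own inhibitors. Epithelial cells, those of the colon included, can secrete IL8 and related chemokines in this way to attract neutrophils.

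The promoters of several genes on the list hold a kappaB consensus, and the sequences around it are shown for a set of chemokines and IL6 that were off or nearly so in these cells and for 3 genes that were clearly expressed. RefSeq promoters (GRCh38.p14, 250 bases before to 50 bases after the start site) were matched for 29 of the 41 genes. LIF was not among the 29. Each line gives 30 bases on the strand of the gene, and capitals mark the 10 bases that matched.
CXCL1 (chr4:73869304-73869333, + strand): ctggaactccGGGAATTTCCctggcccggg
CXCL2 (chr4:74099254-74099283, - strand): ctggagctccGGGAATTTCCctggcccggg
CXCL3 (chr4:74038749-74038778, - strand): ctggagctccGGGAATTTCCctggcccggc
IL6 (chr7:22727117-22727146, + strand): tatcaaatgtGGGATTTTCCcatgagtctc
NFKB1 (chr4:102501300-102501329, + strand): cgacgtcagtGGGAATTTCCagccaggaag
IL32 (chr16:3065294-3065323, + strand): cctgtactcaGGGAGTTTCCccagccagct
NFKBIA (chr14:35404811-35404840, - strand): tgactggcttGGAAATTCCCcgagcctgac

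CXCL1, CXCL2, CXCL3 and NFKB1 carry the same 10 letters in capitals. Both strands were searched, and in CXCL1, CXCL2, CXCL3 and IL32 a second match on the other strand overlaps the one shown, shifted by 1 base. In NFKBIA the match lies on the other strand, where it reads as the same 10 letters as in NFKB1. A match was found in 14 of the 29 promoters (48.3%), against 5.72% of all 27305 RefSeq promoters. It was present in 6 of the 13 matched promoters of genes that were off (46.2%) and in 8 of the 16 of genes that were tested (50%). The tested genes include CXCL3, IL8 and IL1A at very low counts, so these shares do not compare silent with clearly expressed genes. A match describes letters in this window and does not show a bound site.

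The cells were checked against the labels first. DIP2C was at 60.9 and 70.8 CPM in the parental samples, at 17.4 in E3 and 22.8 in C10, and in the DIP2C+/- clones at 33.6 in A6-C9, 46.9 in F6-A7, 41.7 in G1-A5, 38.8 in A9-A12 and 56.2 in H9-A4. Every clone lay below both parental samples, and H9-A4 lay closest to them, at 85.4% of their mean. H9-A4 also stood apart from the other DIP2C+/- clones across all genes, so the fitted values below are given with and without it. It lay nearest to parental RKO across all genes as well. Of all genes tested, 7.44% were past 2-fold from the parental mean in H9-A4, against 11.9% (C10) to 14.4% (E3) in the other clones. Sample totals were 14772593 to 21486483 estimated counts. On these totals alone, 3 counts, taken as the detection floor, correspond to 0.14 to 0.203 CPM. Of 5 epithelial markers KRT18 was high and KRT8 lower, EPCAM and CDH1 did not pass 3.79 CPM in any sample and KRT19 was off. The epithelial markers summed to 230 to 287 CPM in parental RKO, 133 to 167 in DIP2C-/- and 166 to 315 in DIP2C+/- clones. Markers of leukocytes, endothelium and fibroblasts summed to at most 4.89 CPM in any sample, and their part in the results below was not tested.

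Of the 41 genes, 15 were off in all 9 samples, 3 were detected but too low to be tested, and 23 were tested. The silent genes were mostly the secreted signals for which NF-kB is best known. IL6 and IL1B, the classical inflammatory cytokines, TNF, the colony-stimulating factors CSF2 and CSF3, the neutrophil chemokines CXCL1, CXCL2, CXCL5 and CXCL6, the chemokines CCL2, CCL20 and CCL28, the alarmin IL33 and the IGF-binding proteins IGFBP3 and IGFBP4 were all off. The highest count of any of them in any sample was 9 (CXCL2 in a parental sample and CCL20 in A6-C9) and the highest level 0.515 CPM (CCL20 in E3, at 8 counts), and each had at least 1 sample at 0. A sample at 0 still allows a level of up to 3 counts at this depth. Counts here are the deposited estimated values after rounding, not reads. Low values were mostly multiples of a step, 0.774 in parental-1 and 0.751 in E3. CXCL2 and CCL20 may therefore reach 10 in units of that step, and the genes off in such units were not counted. The share that was off, 36.6%, compares with 30.7% of all listed genes. By contrast all 5 subunits, all 3 inhibitors (NFKBIA, NFKBIE and TNFAIP3) and all 4 other targets (BIRC3, ICAM1, IER3 and TRAF1) were tested.

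Per kilobase of transcript, the highest level in parental RKO was that of IL32, a cytokine made by lymphoid and epithelial cells, at 270 CPM per kb. RELA followed with 35.0 CPM per kb, NFKB2 with 28.6, the membrane-bound chemokine CXCL16 with 26.2, the adhesion molecule ICAM1 with 22.3 and the IL-6 family cytokine LIF with 18.5. The chemokines IL8 and CXCL3 lay at 0.162 and 0.276 CPM per kb. Parental RKO thus had transcripts of the NF-kB machinery and of IL32, CXCL16, ICAM1 and LIF, with few or no transcripts of the soluble chemokines.

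**Figure D1:**
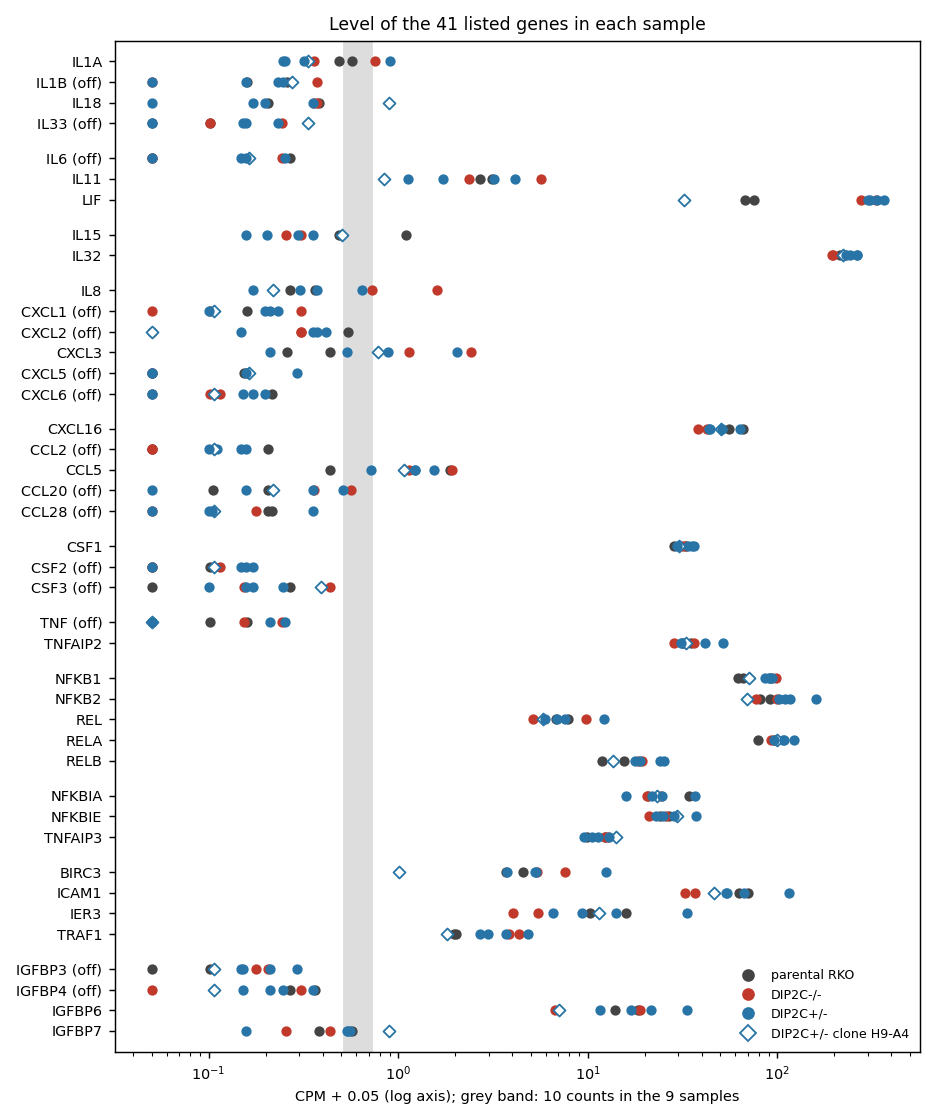
CPM plus 0.05 (log axis) of each of the 41 genes in each of the 9 samples, 1 point per sample, coloured by genotype, with H9-A4 as an open diamond and the grey band at the CPM of 10 counts. The 15 genes that were off lie at or below the band, and LIF shows 6 clones to the right of the parental points and H9-A4 to their left.

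LIF, a cytokine of the IL-6 family that signals through the LIF receptor and gp130, was far above parental RKO in every clone but H9-A4. Its gene lies on chromosome 22 (GRCh37 chr22:30636442-30642748, minus strand). LIF was at 67.2 and 75.7 CPM in the parental samples, 332 in E3 and 276 in C10, and among the DIP2C+/- clones at 309 in A6-C9, 337 in F6-A7, 303 in G1-A5 and 365 in A9-A12, but at 32.4 in H9-A4. In 6 clones LIF was thus at 3.87 to 5.11 times the parental mean with no overlap, and in H9-A4 it was at 0.453 times that mean, below both parental samples. With all 9 samples the log2 fold change of LIF was 2.09 (SE 0.768) in DIP2C-/- and 1.91 (SE 0.691) in DIP2C+/- clones, and neither passed (edgeR quasi-likelihood test, Benjamini-Hochberg adjusted p = 0.346 and 0.396). Without H9-A4 it was 2.09 (SE 0.163) and 2.2 (SE 0.152), and both passed (edgeR adjusted p = 4.8e-05 and 1.34e-05). In DIP2C+/- clones the call for LIF therefore rests on leaving out 1 library, which was known to stand apart. In DIP2C-/- against parental RKO, H9-A4 enters only through the spread shared by the groups. With the parental and DIP2C-/- samples fitted alone, LIF passed (log2 fold change 2.08, edgeR adjusted p = 5.29e-05). The share of all genes called in that fit was not counted, here and for the genes below. In bulk RNA, more cells with LIF transcripts and more transcripts per cell cannot be told apart, here and for the genes below.

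NFKB1, which encodes the p105 precursor of the p50 subunit (GRCh37 chr4:103422487-103538459, plus strand), was the one gene of the 23 that lay above both parental samples in all 7 clones. It was at 66.1 and 62.0 CPM in parental RKO, 92.4 in E3, 98.8 in C10, 90.7 in A6-C9, 86.3 in F6-A7, 93.4 in G1-A5, 92.0 in A9-A12 and 71.2 in H9-A4. Of all genes tested 5.43% lay above, and 5.54% below, both parental samples in all 7 clones, so 1 gene above and 0 below among 23 is near the background. The log2 fold change of NFKB1 with all 9 samples was 0.58 (SE 0.164, edgeR adjusted p = 0.313) in DIP2C-/- and 0.44 (SE 0.14, edgeR adjusted p = 0.376) in DIP2C+/- clones. Without H9-A4 it was 0.58 (SE 0.135, edgeR adjusted p = 0.0345) and 0.50 (SE 0.119, edgeR adjusted p = 0.0264). NFKB1 thus rose in the fit without H9-A4, by less than LIF. With the parental and DIP2C-/- samples fitted alone, NFKB1 also passed in DIP2C-/- (log2 fold change 0.56, edgeR adjusted p = 0.0224).

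The other subunits showed smaller or less uniform differences. RELA, the main activating subunit, was at 97.3 and 79.1 CPM in parental RKO and at 92.1 to 122 in the 7 clones, and the groups overlapped. RELB, which pairs with the NFKB2 product in the non-canonical pathway, was at 15.6 and 11.8 CPM in parental RKO, at 19.4 and 18.5 in E3 and C10, at 17.7 to 25.4 in 4 DIP2C+/- clones and at 13.6 in H9-A4. NFKB2 was at 81.3 and 91.4 CPM in parental RKO and REL at 6.77 and 7.77. NFKB2 (69.4 to 160 CPM) and REL (5.09 to 12.2 CPM) spread to both sides of the parental values across the clones. For both, G1-A5 was the highest clone, with 160 CPM of NFKB2 and 12.2 CPM of REL.

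The inhibitors, which are NF-kB targets themselves and close the feedback loop, did not separate the genotypes. NFKBIA was at 34.2 and 20.7 CPM in the parental samples and at 15.8 (F6-A7) to 36.8 (G1-A5) in the clones, a range that contains both parental values. NFKBIE was at 26.8 and 24.0 CPM in parental RKO and 21.0 to 37.1 in the clones. TNFAIP3, the ubiquitin-editing enzyme A20 that shuts off TNF signalling, was at 12.3 and 9.86 CPM in parental RKO and 9.49 to 14.1 in the clones. None of the 3 inhibitors reached an unadjusted p under 0.05 in any contrast.

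Among the other targets, the cell adhesion molecule ICAM1 had its lowest values in the DIP2C-/- clones. It was at 62.9 and 69.7 CPM in parental RKO, 32.5 in E3 and 36.6 in C10, and at 53.8, 54.3, 115, 66.9 and 46.3 in A6-C9, F6-A7, G1-A5, A9-A12 and H9-A4. The DIP2C-/- values lay below all 7 other samples, while the DIP2C+/- clones reached from below to above the parental values. ICAM1 did not pass in edgeR with all 9 samples or without H9-A4. It was called lower in DIP2C-/- clones by DESeq2 without H9-A4, and by edgeR in a fit of the 2 parental and 2 DIP2C-/- samples alone.

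IER3, an immediate early gene that modulates cell survival, was at 15.8 and 10.2 CPM in parental RKO, 3.99 in E3, 5.44 in C10, 6.53 in A6-C9, 9.31 in F6-A7, 14.0 in G1-A5, 33.4 in A9-A12 and 11.5 in H9-A4. Both DIP2C-/- clones were lowest, and the DIP2C+/- clones spread widely on both sides of the parental values. The log2 fold change of IER3 in DIP2C-/- was -1.46 (SE 0.653, edgeR adjusted p = 0.390) with all 9 samples and -1.46 (SE 0.635, edgeR adjusted p = 0.245) without H9-A4. In the fit of the 4 samples of the compared groups alone IER3 passed (log2 fold change -1.47, edgeR adjusted p = 0.0157). In DIP2C+/- clones the IER3 value was 0.20 (SE 0.532, edgeR adjusted p = 0.920) and 0.28 (SE 0.531, edgeR adjusted p = 0.827) without H9-A4, and its sign depended on single samples.

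BIRC3 and TRAF1, which bind to each other and to TNF receptor complexes, were low. TRAF1 was at 1.98 and 1.93 CPM in parental RKO, 4.31 in E3, 3.78 in C10, 2.65 in A6-C9, 2.92 in F6-A7, 3.64 in G1-A5, 4.77 in A9-A12 and 1.75 in H9-A4. TRAF1 was above the parental samples in 6 clones and below them in H9-A4, with a log2 fold change in DIP2C-/- of 1.05 (SE 0.491, edgeR adjusted p = 0.408) with all 9 samples and 1.05 (SE 0.428, edgeR adjusted p = 0.213) without H9-A4. In DIP2C+/- clones the TRAF1 value was 0.69 (SE 0.423, edgeR adjusted p = 0.555), and 0.84 (SE 0.381, edgeR adjusted p = 0.225) without H9-A4. BIRC3, an inhibitor of apoptosis, was at 4.51 and 3.65 CPM in parental RKO and ranged from 0.962 in H9-A4 to 12.5 in G1-A5. The BIRC3 spread among the clones of 1 genotype was thus larger than the difference between genotypes.

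**Figure D2:**
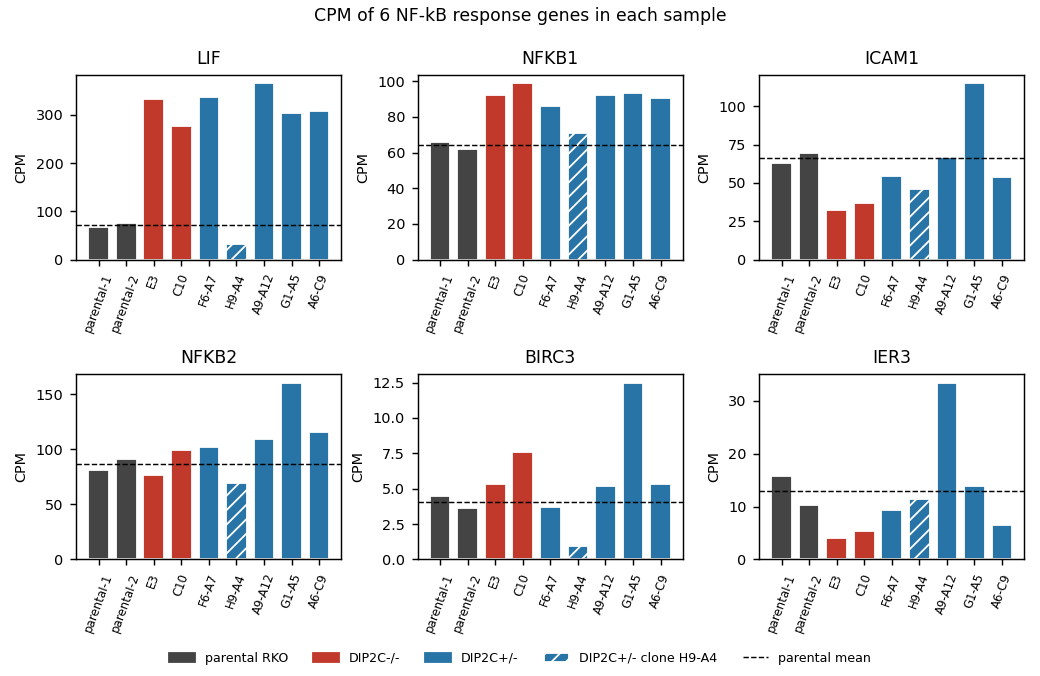
CPM of LIF, NFKB1, ICAM1, NFKB2, BIRC3 and IER3 in each of the 9 samples (bars from 0, 1 library each, coloured by genotype, H9-A4 hatched), with the parental mean as a dashed line. LIF is high in 6 clones and low in H9-A4, while NFKB2, BIRC3 and ICAM1 are highest in the single clone G1-A5 and IER3 in A9-A12.

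Of the 6 neutrophil-attracting CXC chemokines, which lie within 358.7 kb on chromosome 4 (GRCh37 chr4:74606236-74964913), 4 were off and IL8 and CXCL3 were tested at very low counts. IL8 had 4 and 6 counts in the parental samples (0.220 and 0.313 CPM), 24 in E3 and 13 in C10 (1.55 and 0.673 CPM), and 5, 2, 12, 6 and 3 in A6-C9, F6-A7, G1-A5, A9-A12 and H9-A4. CXCL3 had 7 and 4 counts in parental RKO, 17 and 46 in E3 and C10, and 39, 8, 17, 3 and 13 in the DIP2C+/- clones in the same order. Both were higher in the DIP2C-/- clones than in either parental sample, and both overlapped with parental RKO among DIP2C+/- clones. IL8 and CXCL3 passed the filter through the clones in which they were high, so that their being tested is not independent of a difference.

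The log2 fold change of CXCL3 in DIP2C-/- was 2.53 (SE 0.976, edgeR adjusted p = 0.355), and 2.53 (SE 1.00, edgeR adjusted p = 0.198) without H9-A4. The log2 fold change of IL8 in DIP2C-/- was 2.02 (SE 0.780, edgeR adjusted p = 0.355), and 2.02 (SE 0.805, edgeR adjusted p = 0.202) without H9-A4. In DIP2C+/- clones the CXCL3 value was 1.49 (SE 0.871, edgeR adjusted p = 0.531) and the IL8 value 0.14 (SE 0.699, edgeR adjusted p = 0.957). Without H9-A4 these were 1.54 (SE 0.915, edgeR adjusted p = 0.369) and 0.28 (SE 0.745, edgeR adjusted p = 0.878). None of the values for CXCL3 and IL8 passed. The coding sequence of CXCL3 is 94.44% identical to that of CXCL2 and 90.74% to that of CXCL1, so reads may be divided among the 3 genes and the CXCL3 counts are uncertain. IL8 is at most 58.98% identical to the 3.

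IL32 and CXCL16 were, beside LIF, well expressed among the secreted or shed signals. IL32 was at 228 and 215 CPM in parental RKO, 198 and 194 in E3 and C10, and 243, 264, 265, 232 and 223 in A6-C9, F6-A7, G1-A5, A9-A12 and H9-A4. The DIP2C-/- values lay below all 7 other samples, by a small margin in relation to the level. CXCL16 was at 66.3 and 55.5 CPM in parental RKO, 42.5 and 38.3 in the DIP2C-/- clones and 43.5 to 63.4 in the DIP2C+/- clones. CXCL16, whose exons overlap MED11 and ZMYND15 on the opposite strand, did not pass with all 9 samples or without H9-A4, and was called lower in DIP2C-/- clones in the fit of the 4 samples of the compared groups alone. Strandedness of the libraries is not given in the sources used here, and reads of these overlapping genes may not be told apart.

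The remaining cytokines and secreted proteins lay close to parental RKO or varied from clone to clone. CSF1, the macrophage growth factor, was at 32.5 and 28.5 CPM in the parental samples and 29.4 to 36.4 in the clones, the narrowest range among the 23 genes as a ratio of the highest to the lowest clone (1.24-fold). TNFAIP2 was at 35.2 and 31.9 CPM in parental RKO and 28.7 to 52.0 in the clones. IL11, an IL-6 family cytokine, was at 3.08 and 2.66 CPM in parental RKO, 2.32 in E3 and 5.64 in C10, and 0.792 (H9-A4) to 4.08 (A6-C9) in DIP2C+/- clones. IGFBP6, which binds IGF2, was at 13.8 and 18.3 CPM in parental RKO, 6.63 in E3 and 18.7 in C10, and 7.01 (H9-A4) to 33.5 (A9-A12) in DIP2C+/- clones. In IL11 and IGFBP6 clones of 1 genotype lay on both sides of the parental samples.

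CCL5, a T cell chemokine, was at 0.385 and 1.83 CPM in the parental samples, and this gap was wider than the range of the 7 clones (0.669 to 1.86 CPM). IL1A was at 0.440 and 0.522 CPM in parental RKO and 0.197 (G1-A5) to 0.852 (F6-A7) in the clones, none above 14 counts. Of the 3 genes detected but not tested, IL15 had 8 and 20 counts in the parental samples and 2 to 8 in the clones, and IL18 and IGFBP7 had their highest counts, 15 each, in H9-A4.

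Across the list, 0 of the 23 tested genes were called (adjusted p under 0.05) in DIP2C-/- against parental RKO with all 9 samples in edgeR, where 0.00644% of all 15532 genes tested were called, and 0 in DESeq2, where 2.26% were called. An unadjusted p under 0.05 was reached by 7 of the 23 (CXCL16, CXCL3, ICAM1, IER3, IL8, LIF and NFKB1). Of these, CXCL3 and IL8 passed the filter through the clones in which they were high. The share of all genes under an unadjusted p of 0.05 was not counted, so such counts, here and below, are description only. In DIP2C+/- against parental RKO 0 of 23 were called in edgeR (background 0.0966%) and 0 in DESeq2 (background 1.31%), with LIF and NFKB1 under an unadjusted p of 0.05. In all knockout clones against parental RKO 0 of 23 were called in edgeR (background 0.180%, of which 0.174% was lower) and 0 in DESeq2 (background 2.28%), with CXCL16, LIF and NFKB1 under an unadjusted p of 0.05. These 3 contrasts share the parental samples and are not independent of each other. DESeq2 gave no adjusted p for IL8 in DIP2C-/- and in all knockout clones with all 9 samples. It gave none for IL8 in any of the 3 contrasts without H9-A4, so IL8 could not be called there. DIP2C itself did not pass with all 9 samples (edgeR adjusted p = 0.0998 in DIP2C-/- and 0.386 in DIP2C+/-). A gene that was not called is thus not shown to be unchanged.

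Without H9-A4, edgeR called 2 of the 23 genes higher (LIF and NFKB1) and 0 lower in each of these 3 contrasts. The background of genes called in either direction was 4.76% in DIP2C-/-, 7.95% in DIP2C+/- and 8.95% in all knockout clones (4.48% higher and 4.47% lower), so the share of the list lay near the background. DESeq2 without H9-A4 called ICAM1, LIF and NFKB1 in DIP2C-/- (background 10.9%), and LIF, NFKB1 and RELB in DIP2C+/- (background 15%) and in all knockout clones (background 15.5%). The median log2 fold change of the 23 genes with all 9 samples was 0.083 in DIP2C-/- against 0.022 over all genes tested, and 0.171 in DIP2C+/- against 0.020. The log2 fold change was positive for 15 of the 23 genes in DIP2C-/- and for 19 in DIP2C+/-. Without H9-A4 the median was 0.084 in DIP2C-/- against 0.021 over all genes, with 15 positive, and 0.215 in DIP2C+/- against 0.012, with 18 positive. These counts and medians include IL8, CXCL3 and IL1A, which passed the filter at low counts, and are given as description. The share of positive values over all genes tested was not counted.

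**Figure D3:**
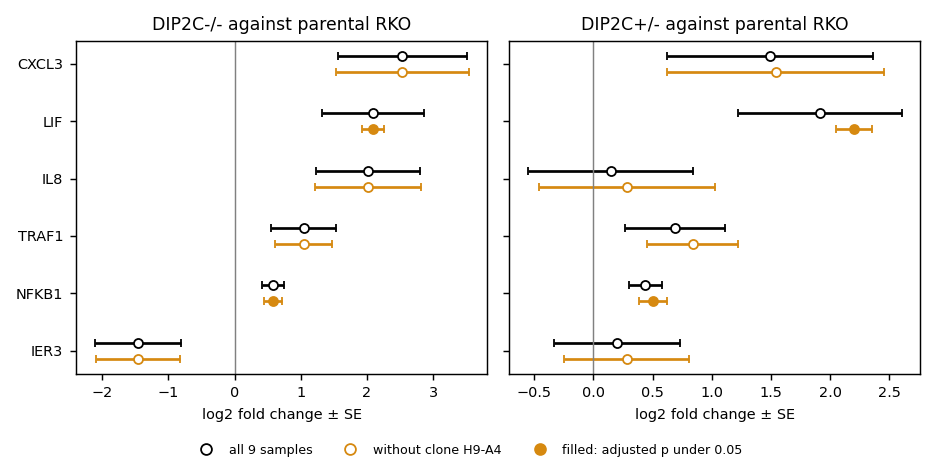
edgeR log2 fold change (x axis, with SE bars) against parental RKO of LIF, NFKB1, CXCL3, IL8, IER3 and TRAF1, for DIP2C-/- (left) and DIP2C+/- clones (right), with all 9 samples (black) and without H9-A4 (orange), filled where the adjusted p is under 0.05. LIF and NFKB1 are filled in both panels without H9-A4, and the bars of LIF shrink from 0.768 to 0.163 in DIP2C-/-.

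The genotypes were also compared with each other, and DIP2C+/- against DIP2C-/- gave 0 calls among the 23 genes in edgeR with all 9 samples (background 0%) and 0 in DESeq2 (background 0.0578%), with ICAM1, IER3, IL32 and IL8 under an unadjusted p of 0.05. Without H9-A4 it called 0 in edgeR (background 0%) and 0 in DESeq2 (background 0.0635%), with 5 under an unadjusted p of 0.05 in edgeR and a smallest edgeR adjusted p of 0.679. DESeq2 gave no adjusted p in this contrast for CXCL3, IL8 and TRAF1 with all 9 samples, or for IL8 without H9-A4. These genes could not be called by DESeq2 there. The log2 difference of LIF, DIP2C+/- minus DIP2C-/-, was -0.18 with all 9 samples (edgeR adjusted p = 0.986) and 0.11 without H9-A4 (edgeR adjusted p = 0.881). No difference between the genotypes was thus shown for any gene of the list. DIP2C itself was not called in this contrast (log2 fold change 1.11, edgeR adjusted p = 0.878, and 1.00 and 0.679 without H9-A4). The absence of calls therefore does not show equal levels.

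Clone by clone, with no test since each clone is 1 library, the genes past 2-fold from the parental mean differed in number and make-up. They numbered from 1 of 23 in F6-A7 (against 14.1% of all genes tested) to 7 of 23 in E3 (against 14.4%). In E3, LIF, IL8, CXCL3 and TRAF1 were past 2-fold above (8.93% of all genes tested) and ICAM1, IER3 and IGFBP6 below (5.47%). In C10, LIF, IL8, CXCL3 and CCL5 were above (5.71%) and IER3 below (6.23%). CCL5 in C10 was past 2-fold only against the mean of the parental log2 values, at 1.01, and was at 1.69 times the parental mean CPM and close to one of the parental samples. In F6-A7 LIF alone was above (8.12%) and 0 below (5.97%). Both DIP2C-/- clones thus had LIF, IL8 and CXCL3 past 2-fold above and IER3 below. Of these, IL8 and CXCL3 passed the filter through the clones in which they were high, and are given as description. ICAM1 (-1.03 in E3 and -0.85 in C10) and TRAF1 (1.10 and 0.91) lay just on either side of 2-fold in the 2 clones and were alike in them, while IGFBP6 was -1.25 in E3 and 0.24 in C10.

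In A9-A12, LIF, IER3, TRAF1 and IGFBP6 were above (7.35%) and IL11 below (6.55%). In G1-A5, LIF, CXCL3 and BIRC3 were above (4.04%) and 0 below (7.96%), and in A6-C9, LIF and CXCL3 were above (6.21%) and 0 below (7.83%). In H9-A4 CXCL3 was above (3.26%), and IL11, LIF, BIRC3 and IGFBP6 were below (4.18%), 5 in either direction against 7.44%. LIF was the one gene past 2-fold above in all 6 clones other than H9-A4. The parental samples themselves differed past 2-fold in 1 of the 23 genes, CCL5 (4.35%), against 7.91% of all genes tested.

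**Figure D4:**
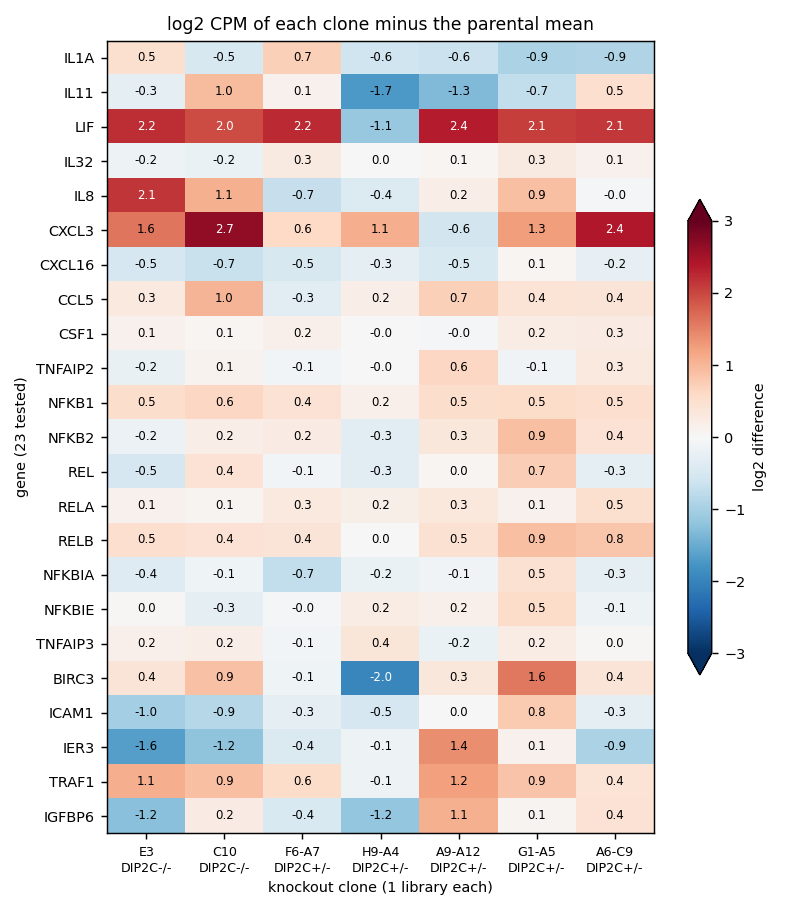
Heat map of log2 CPM minus the parental mean for the 23 tested genes (rows) in the 7 clones (columns, 1 library each), red above and blue below, with each value printed. LIF is red in 6 columns and blue in H9-A4, and G1-A5 is red for most subunits, inhibitors and targets.

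Without H9-A4, LIF, NFKB1, RELB and TRAF1 lay above both parental samples in all 6 clones, and 0 genes lay below, against 12.4% and 11.5% of all genes tested. In the 2 DIP2C-/- clones alone, LIF, IL8, CXCL3, NFKB1, RELB, TNFAIP3, BIRC3 and TRAF1 lay above and IL32, CXCL16, ICAM1 and IER3 below, 8 and 4 of 23, against 26.9% and 26.3%. These counts include IL8 and CXCL3, which passed the filter through the clones in which they were high, and are given as description.

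G1-A5 differed from the other clones in the NF-kB core. It had the highest value of the 9 samples for 8 of the 23 genes (IL32, NFKB2, REL, RELB, NFKBIA, NFKBIE, BIRC3 and ICAM1), where 11.5% of all genes tested were highest in it. Of the 12 subunits, inhibitors and other targets, 7 were highest in G1-A5. The median log2 difference of all 12 from the parental mean was 0.643 in G1-A5, 0.327 in A9-A12, 0.210 in A6-C9, 0.206 in C10, 0.082 in E3, -0.050 in F6-A7 and -0.147 in H9-A4. G1-A5 is 1 library, had the largest total and the lowest TMM factor (0.9452), and the part of these in its values was not tested.

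Genes that act before or around NF-kB, and receptors for these cytokines, were taken from a separate list of 73 genes, of which 72 were found, 13 were off and 58 were tested. With all 9 samples edgeR called 0 of the 58 in either genotype, with 10 in DIP2C-/- and 7 in DIP2C+/- under an unadjusted p of 0.05. DESeq2 called 2 in DIP2C-/- (MAP3K14 and TLR3, background 2.26%) and 0 in DIP2C+/- (background 1.31%). Without H9-A4, 56 remained testable, and edgeR called 4 higher and 2 lower in DIP2C-/-, and 5 higher and 1 lower in DIP2C+/- clones, against 2.32% and 2.44%, and 4.37% and 3.58%, of all genes. DESeq2 without H9-A4 called 8 in DIP2C-/- (background 10.9%) and 9 in DIP2C+/- clones (background 15%). Of the 12 tested receptors for the cytokines and chemokines, 0 were called by edgeR in either fit. CCR10, the receptor of CCL28, was the one that reached an unadjusted p under 0.05 (DIP2C+/- without H9-A4, where DESeq2 also called it).

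IRAK1, the kinase that relays IL-1 and Toll-like receptor signals, was at 172 and 153 CPM in parental RKO, 540 and 510 in E3 and C10, and 599, 634, 518, 643 and 99.6 in A6-C9, F6-A7, G1-A5, A9-A12 and H9-A4. NFKBIZ, an atypical nuclear IkB protein that modulates NF-kB target genes, was at 11.99 and 14.9 CPM in parental RKO, 52.4 and 95.0 in E3 and C10, and 100.05, 72.2, 61.0, 25.8 and 4.13 in the DIP2C+/- clones in the same order. IRS1, which relays signals from the IGF1 and insulin receptors, was at 316 and 333 CPM in parental RKO, 21.8 and 26.2 in E3 and C10, and 23.7, 31.6, 28.6, 29.9 and 461 in the DIP2C+/- clones. In all 3 genes H9-A4 lay on the other side of the parental samples from the other 6 clones, the same arrangement as for LIF. RIPK1, CYLD and SIGIRR, described below, showed it too, and MAP3K14 did not. Genes of this list are printed because they passed in edgeR only without H9-A4. That choice favours genes in which H9-A4 departs from the other clones, so the shared arrangement is description only.

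With all 9 samples the log2 fold change in DIP2C-/- and DIP2C+/- clones was 1.69 and 1.62 for IRAK1 (edgeR adjusted p = 0.348 and 0.390), 2.46 and 1.97 for NFKBIZ (0.361 and 0.430) and -3.76 and -1.50 for IRS1 (0.355 and 0.594), and none passed. Without H9-A4 it was 1.69 and 1.88 for IRAK1 (edgeR adjusted p = 0.000128 and 2.45e-05), 2.46 and 2.27 for NFKBIZ (0.0183 and 0.0131) and -3.76 and -3.51 for IRS1 (3.82e-06 and 2.6e-07). Leaving out this 1 library thus moved the log2 fold change of IRS1 in DIP2C+/- clones from -1.50 to -3.51.

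RIPK1, the adaptor kinase of TNF receptor 1, had values of 1.07 and 0.74 with all 9 samples (edgeR adjusted p = 0.340 and 0.428) and rose by 1.07 and 0.91 without H9-A4 (0.0294 and 0.0263). CYLD, a deubiquitinase that restrains NF-kB, had 0.93 and 0.77 with all 9 samples (edgeR adjusted p = 0.354 and 0.402) and rose by 0.94 and 0.95 without H9-A4 (0.0175 and 0.00661). MAP3K14, the kinase that starts the non-canonical pathway, had -1.63 and -0.85 with all 9 samples (edgeR adjusted p = 0.266 and 0.383). Without H9-A4 MAP3K14 was lower by the test in DIP2C-/- (-1.63, edgeR adjusted p = 0.0202) and did not pass in DIP2C+/- clones (-0.91, 0.0752). SIGIRR, an inhibitory receptor of the IL-1 family, had 0.56 and 0.69 with all 9 samples (edgeR adjusted p = 0.590 and 0.473), and without H9-A4 it passed in DIP2C+/- (0.88, edgeR adjusted p = 0.0231) and not in DIP2C-/- clones (0.56, 0.212). The genes that passed without H9-A4 include both activators and restraints of the pathway.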

How the data were processed

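The authors sequenced RNA on the Ion Proton system, aligned reads to hg19 with TopHat2 2.0.4 and quantified genes with Cufflinks (2.2.1 in the submitters' processing notes). What was deposited is 1 file per sample with an estimated count for each gene, not always whole. How they were exported is not given in the sources used here. Of the low values, 98.43% to 98.82% were whole multiples of 1 step (0.711 to 1.115), within 0.02 reads. Values were rounded to whole numbers.

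CPM and log2 CPM were taken on sample totals multiplied by the TMM factors, with a prior count of 2 for log2 CPM. The CPM of the detection floor was taken on sample totals alone. Genes passing filterByExpr (15532, or 15390 without H9-A4) were fitted with 1 coefficient per genotype in edgeR 4.0.16 (R 4.3.3), with the quasi-likelihood F test and Benjamini-Hochberg adjustment over all genes tested. Called means an adjusted p under 0.05. The SE was the absolute log2 fold change over the root of F. DESeq2 1.42.0 was an alternative. The scripts were tested on simulated data.

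Between replicates of a genotype the chi-square per degree of freedom was 16.39 to 95.15, with 80.86 to 95.15 for pairs that include H9-A4, so none was counted as a duplicate. The biological coefficient of variation was 0.2975, and 0.2419 without H9-A4. Labels give no batch or date. Counting error only is covered by the detection floor. Positions are from GENCODE on GRCh37.

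Genes and lists were chosen with earlier results of these data known. Fitted values are printed for genes with an adjusted p under 0.05 with all 9 samples or without H9-A4, or an absolute log2 change of 1 or more. For genes of the pathway list an adjusted p under 0.05 in either fit was needed. The alternatives were other size factors, filters, tests and sample sets.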

Additional observations from a re-analysis of the deposited data

Results flagged for a closer look

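Among the 5 DIP2C+/- clones, LIF in H9-A4 lay so far below the other 4 that the gap to its nearest neighbour was 0.923 of the whole range, above Dixon's critical value of 0.71. For IL1A the highest clone, F6-A7, was separated by 0.784 of the range, at no more than 14 counts. Of 23 genes checked these were the 2 found, where chance gives about 1 in 20 groups. IL32 was below the parental mean in both DIP2C-/- clones and above it in all 5 DIP2C+/- clones, with a log2 difference between the genotypes of 0.326 that was not called by the direct test.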

How the results depend on the processing

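The number of the 23 genes called, 0 in each contrast with all 9 samples, changed mainly with the samples fitted. In DIP2C-/- it was 5 with only the compared groups (CXCL16, ICAM1, IER3, LIF and NFKB1), 2 without H9-A4 and A6-C9, 3 with DESeq2 without H9-A4, and 0 to 2 with 1 sample left out. In DIP2C+/- it was 1 (LIF) without H9-A4 and A6-C9, 3 with DESeq2 without H9-A4, 2 with only the compared groups without H9-A4, and 0 to 2 with 1 sample left out. For all knockout clones the same settings gave 2, 3, 2, and 0 to 2. The DESeq2 fits without H9-A4 and the fits of the compared groups without H9-A4 were chosen after seeing the data. For the fits of the compared groups alone and those without H9-A4 and A6-C9, the share of all genes called was not counted. Counts past 2-fold went from 1 to 2 in F6-A7 and from 2 to 4 in A6-C9 against either parental sample alone, and from 3 to 5 in G1-A5 with a prior count of 0.5 or against parental sample 2 alone. Genes not overlapping parental RKO numbered 1 to 4 with 1 sample left out, with 4 without the first and 3 without the second parental sample, 4 without H9-A4 and 2 without A9-A12 or G1-A5. In DIP2C+/- clones the log2 fold change of IL8 was -0.28 (without G1-A5) to 0.43 with 1 sample left out and became -0.08 without the first parental sample. That of IER3 was -0.33 (without A9-A12) to 0.54 and became -0.07 without the second parental sample. The other 91 counts stayed within 1.5 times and 196 single-gene values kept direction and side of the threshold, while 16 passed it. The cause was not tested. No paired analysis was possible because the clones carry no replicate numbers in the labels. IL8 and CXCL3 could not be fitted with at least 10 counts in every sample, nor IL8 in DIP2C+/- with only the compared groups. Depth limits IL8, CXCL3, IL1A and the 15 genes that were off, and the 2 samples each of parental RKO and DIP2C-/- limit the rest.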
